A study of Mus musculus with 14 samples.

Results

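SOX10 ChIP regions at the epithelial-mesenchymal transition (EMT) genes Vim, Zeb1, Zeb2, Snai2 and Twist1 in PY230 tumors were examined. Members were all listed regions that overlapped, by 1 base or more, a window set around each gene on mouse build mm9. The windows were chr18:5450000-5900000 for Zeb1, chr2:44600000-45400000 for Zeb2, chr16:14550000-14850000 for Snai2, chr12:34500000-34800000 for Twist1 and chr2:13350000-13650000 for Vim. They held 6 of the 7929 listed regions (0.0757%). A window centre is the midpoint of its interval and not a gene position, since gene positions on mm9 were not available. The series has 14 ChIPmentation samples of mouse mammary cells and tumors in 8 groups, and the list concerns 3 of them. The 2 SOX10 ChIP samples came from PY230 tumor cells that expressed an AVI-tagged SOX10 and BirA, which biotinylates the tag. The 1 control sample came from PY230 control cells put through the same streptavidin pulldown, and the labels do not say which constructs they carried. Both groups are adult mammary tumors on the C57BL6J strain, grown from PY230 cells transplanted into syngeneic mice, so the tagged factor was introduced into a cultured tumor line. The deposited list joins both ChIP samples against the control, so there is no replicate error for any region and control levels at these loci were not analysed here.

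During EMT, epithelial cells lose their junctions and polarity and take on the shape and motility of mesenchymal cells. Zeb1, Zeb2, Snai2 and Twist1 encode DNA-binding factors that drive this change, and Vim encodes vimentin, an intermediate filament protein by which mesenchymal cells are recognised. The Zeb and Snail factors bind the E2-box in the promoter of the E-cadherin gene Cdh1 and repress it. SOX10, an HMG-box factor, acts in the neural crest, an embryonic tissue whose cells leave the neural tube by EMT and which also uses Snai2, Twist1 and Zeb2. The question behind the comparison is whether SOX10 regions lie at these regulators of cell state more often than elsewhere on the same chromosomes.

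SOX10 regions were listed at 4 of the 5 loci, and no locus differed from the density of its chromosome by the test. Twist1 and Zeb2 had 2 regions each, Zeb1 and Snai2 had 1 each, and Vim had none. Over all 5 windows (2.15 Mb) the 6 regions compared with 6.42 expected from the chromosomes' own densities, a ratio of 0.935. No interval or test was computed for this ratio. It counts both regions at Zeb2 and both at Twist1, which lie under 10 kb apart. In the two-sided exact binomial test, run over all same-size windows of all chromosomes with Benjamini-Hochberg adjustment, 0 of 5 loci passed an adjusted p of 0.05 and 0 of 5 had an unadjusted p under 0.05. Of all windows on the same grids, 3.24% were called for the Vim and Snai2 grids, 3.15% for the Twist1 grid, 4.27% for the Zeb1 grid and 6.02% for the Zeb2 grid, all of them for more regions than expected. A call needed 5 regions in the Vim or Snai2 window, 6 in the Twist1 window and 8 in the Zeb1 or Zeb2 window, and no fall could be called at these sizes because a count of 0 had an unadjusted p between 0.279 and 1.0 in the exact binomial test. Regions cluster, with a variance of window counts 2.30 to 3.87 times the mean, so the binomial p-values are too small. For the same reason the exact Poisson intervals given below are too narrow.

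**Figure D1:**
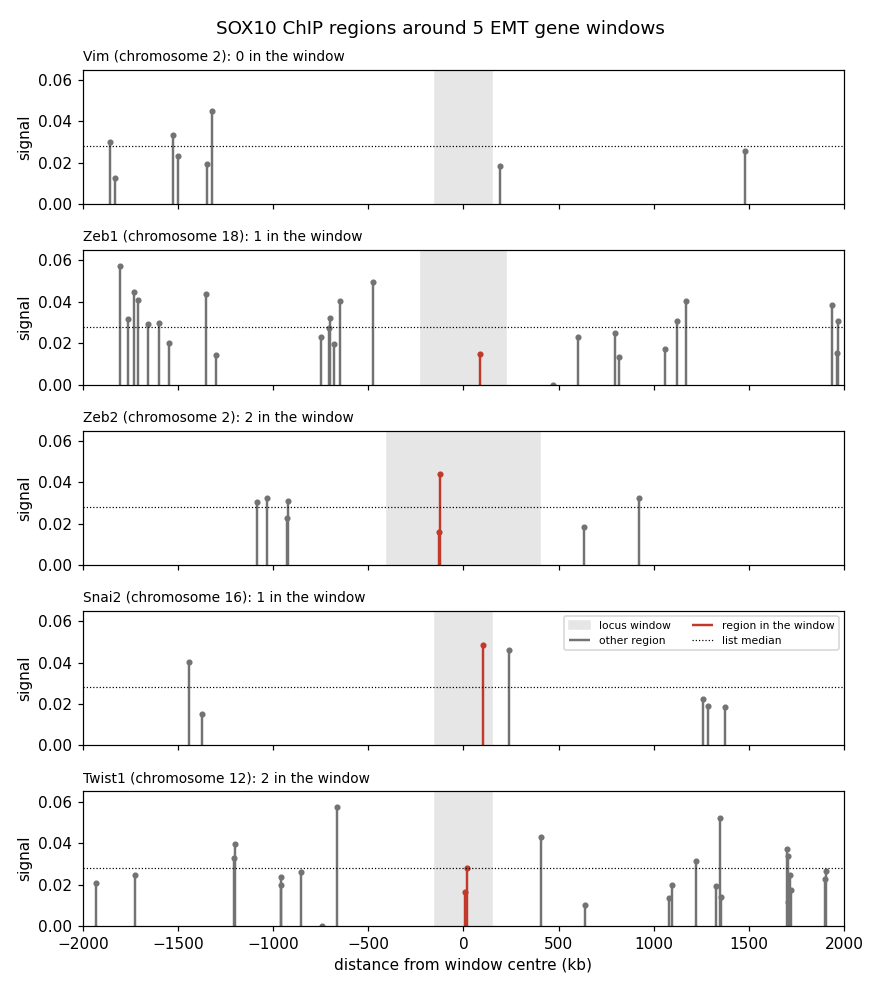
Deposited signal (vertical axis, unit not stated) of every listed SOX10 ChIP region within 2000 kb of the centre of each window (horizontal axis, kb), with the window shaded and its regions in red. The Zeb2 and Twist1 pairs and the Zeb1 region have no other region within 380.3 kb, the Snai2 region has a neighbour 139.0 kb away, and the Vim window is empty.

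Zeb1 encodes a zinc-finger homeobox repressor of epithelial genes. Its window held 1 region, chr18:5764254-5764567, which was 314 bp wide with a signal of 0.0146. That is a low value, 0.522 times the list median of 0.0280, and 9.92% of the 393 regions of chromosome 18 lay lower. The deposited signal behaves like coverage averaged over the bases of a region. Signal times width was a whole multiple of a step of 0.0479, within 0.05 of a step, in 99.8% of 7282 regions above 0 and under 1500 bp. Of these multiples, 39.2% were divisible by 54. For every other divisor from 40 to 70 the share was at most 8.10%. The 54 was a fixed setting and was not fitted. Read equivalents are therefore given as the product of signal and width in units of 54 steps, which interprets the deposited values and is no count made by the authors. They may be net of a control, and they were not compared with the background coverage of the genome. The Zeb1 region had 1.78 read equivalents, and 5.20% of the list had fewer, so it rests on very little signal.

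Against chromosome 18, the Zeb1 window had 0.485 times the expected number of regions (1 region, 2.06 expected, 95% exact Poisson interval of the ratio 0.0123 to 2.70, counting error only). The exact binomial test gave p = 0.729 and an adjusted p of 0.953. Of 190 windows of 450 kb on chromosome 18, 54.7% held at least 1 region and 45.3% held none. The window held 2.22 regions per Mb, against 6.50 per Mb (26 regions) in the 4 Mb around its centre and 4.58 per Mb on the whole chromosome, a difference that was not tested. The ratio was 0.970 in the central 225 kb, 0.242 in a window of 900 kb and 0 in the upper 50% of the list by signal, and none of these was called (exact binomial test, adjusted p from 0.473 to 1.0). The nearest region before the Zeb1 window ended 250.2 kb away (chr18:5198828-5199767) and had a signal of 0.0495. The nearest after it began 244.8 kb away (chr18:6144836-6145160) and was listed at a signal of 0. Of the 311 runs of chromosome 18, where a run joins regions less than 10 kb apart and may be a single region, 2.89% had both neighbours at least as far away as the nearer neighbour of the Zeb1 region (380.3 kb).

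Zeb2, the paralog of Zeb1 and also a neural crest and Schwann cell factor, had the widest member region and the one with the most read equivalents. The region chr2:44874026-44875840 was 1815 bp wide with a signal of 0.0441, or 31.0 read equivalents. It is wider than the 1500 bp under which the step was checked, so the unit is extended to it. Its partner, chr2:44872658-44873465, was 808 bp wide with a signal of 0.0160, or 5.0 read equivalents. The stronger region ranked 37 of 449 by signal on chromosome 2, with 86.1% of the list below it, and 97.3% of the list had fewer read equivalents. The weaker one ranked 374 of 449, and 15.0% of the list lay below it. The Zeb2 pair thus joins a strong, broad region to a weak one, with a signal ratio of 2.76. Among 897 runs of 2 regions with signal above 0, the median ratio of stronger to weaker was 1.45 and 10.7% had a ratio as high.

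Only 560 bp separated the Zeb2 regions, and both lay within 3183 bp. Gaps under 1 kb separated 455 of 7909 neighbouring regions of the list (5.75%), and the list does not show whether regions so close are separate sites. The pair together had 36.0 read equivalents, more than 95.3% of all 6131 runs and single regions. Away from each other, the Zeb2 regions stood alone. The next listed region lay 794.0 kb before and 755.9 kb after the pair, and 4.74% of the 380 runs of chromosome 2 had both neighbours at least that far away, with a median distance to the nearer neighbour of 76.1 kb. The pair lay 125.1 and 126.9 kb before the window centre.

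In number, Zeb2 was close to average for chromosome 2. The 2 regions compared with 2.03 expected (ratio 0.984, exact Poisson interval 0.119 to 3.56), with p = 1.0 and an adjusted p of 1.0 in the exact binomial test. Of 220 windows of 800 kb on chromosome 2, 47.3% held at least 2 regions, 36.4% held none and the median was 1. The direction turned in the central 400 kb, where the same 2 regions gave a ratio of 1.97 (adjusted p = 0.906 in the exact binomial test). With the pair counted once, Zeb2 had 0.579 times the expected number and 63.6% of windows held as many runs.

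Snai2 encodes Slug, a zinc-finger repressor of the Snail family that is also active in mammary basal cells. Its window held 1 region, chr16:14800108-14800799, which was 692 bp wide and had the highest signal of the 6 members, 0.0485. It ranked 10 of 226 on chromosome 16, where 95.6% of regions lay lower, and 758 in the list, with 90.4% below it. The Snai2 region had 13.0 read equivalents, and 77.2% of the list had fewer, so its place was lower by total than by signal per base. It lay 100.5 kb beyond the window centre and 49.2 kb from the window's end, and the central 150 kb held none.

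Chromosome 16 was empty for a long way before the Snai2 region. The region before it ended 1475.9 kb away (chr16:13323840-13324176, signal 0.0153, 2.0 read equivalents). The region after it began 139.0 kb away and outside the window (chr16:14939813-14941523). That neighbour was broad, at 1711 bp, and had a similar signal of 0.0461 and 30.5 read equivalents. Of the 191 runs of chromosome 16, 26.2% had both neighbours at least 139.0 kb away, so its isolation was not rare. The 1 region in the Snai2 window compared with 0.715 expected, a ratio of 1.40 (exact Poisson interval 0.0354 to 7.79, exact binomial p = 0.512, adjusted p = 1.0). Of 315 windows of 300 kb on chromosome 16, 33.0% held at least 1 region. In the upper 50% of the list by signal the Snai2 region remained and the ratio was 3.63 (exact binomial test, adjusted p = 1.0).

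Twist1, a basic helix-loop-helix factor needed for the cranial neural crest, had the highest density of the 5 windows. Its window held 2 regions in 300 kb or 6.67 per Mb (95% exact Poisson interval 0.807 to 24.1), against 2.83 per Mb on chromosome 12. The 4 Mb around its centre, which include the window, held 6.50 per Mb (26 regions). The 300 kb just before the window held 0 regions and the 300 kb just after it held 1. These differences were not tested. The first, chr12:34658744-34659377, was 634 bp wide with a signal of 0.0163 and 4.0 read equivalents. The second, chr12:34666006-34666747, was 742 bp wide with a signal of 0.0279 and 8.0 read equivalents. Both signals were modest, with 15.9% and 49.5% of the list below them, and neither reached the list median. They ranked 265 and 132 of 331 on chromosome 12.

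The Twist1 regions lay closer to their window's centre than any other member, 9.06 and 16.4 kb beyond it. The distance of these regions from the gene itself was not measured. A gap of 6628 bp separated them, and 1798 of 7909 gaps in the list (22.7%) were under 10 kb. The second region had 1.71 times the signal of the first, and 34.2% of runs of 2 regions had a ratio as high. Their nearest neighbours outside lay 671.5 kb before (chr12:33986923-33987281, signal 0.0576) and 390.2 kb after (chr12:35056939-35058224, signal 0.0431), and both of these were stronger. Of the 259 runs of chromosome 12, 9.27% had both neighbours at least 390.2 kb away.

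The ratio for Twist1 was 2.35 (2 regions, 0.849 expected, exact Poisson interval 0.285 to 8.51), and it did not pass the test (exact binomial p = 0.209, adjusted p = 1.0). Of 389 windows of 300 kb on chromosome 12, 22.1% held at least 2 regions and 64.3% held none. The result depended on how close and weak regions were counted. With the pair counted once the ratio was 1.49 and 35.7% of windows held as many runs, and with only the upper 50% of the list by signal the Twist1 window was empty. In the central 150 kb, which held both regions, the ratio was 4.71, and in 600 kb it was 1.18 (exact binomial test, adjusted p = 0.812 and 0.886).

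Vim, the only effector gene of the 5, had no listed region in its window, where 0.762 were expected. The upper limit of the exact Poisson interval for 0 regions was 4.84 times the expected number. An excess below that size is compatible with this count, and the limit would be higher if clustering were allowed for. An empty window of 300 kb was the usual state on chromosome 2, at 359 of 588 windows or 61.1%, and the exact binomial p was 1.0 (adjusted p = 1.0). The nearest region lay 39.6 kb past the end of the Vim window (chr2:13689617-13690627), 1011 bp wide with a signal of 0.0186 and 7.28 read equivalents. On the other side the nearest lay 1171.1 kb before the window (chr2:12177268-12178944, signal 0.0449, 29.1 read equivalents). In the 4 Mb around the Vim window centre there were 8 regions, or 2.0 per Mb, against 2.54 per Mb on chromosome 2. With a window of 600 kb the count became 1, and the ratio 0.656.

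**Figure D2:**
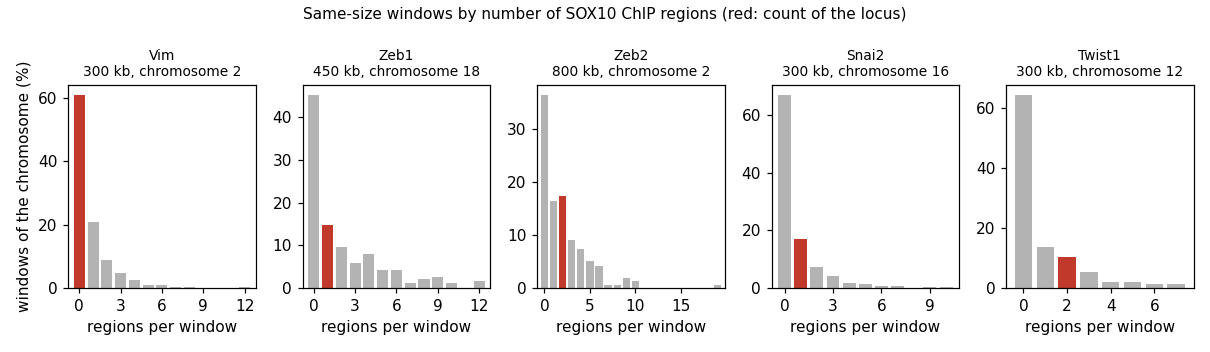
Share of all same-size windows on the chromosome of each locus (vertical axis, %) by the number of SOX10 ChIP regions they hold (horizontal axis), with the count of the locus in red. Windows with no region are the most frequent class in every panel, from 36.4% for the Zeb2 size to 67.0% for the Snai2 size, and the locus counts lie among the frequent low counts.

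Signal differed widely among the 6 members. The lowest, at Zeb1, was 0.0146 and the highest, at Snai2, was 0.0485, a ratio of 3.32. In read equivalents the range was wider, from 1.78 at Zeb1 to 31.0 at Zeb2, a ratio of 17.4. The median signal of the members was 0.0221, against 0.0280 in the list (quartiles 0.0200 and 0.0374). Of the 6 members, 3 lay below the lower quartile of the list (Zeb1 and the weaker region of each pair), 2 lay above the upper quartile (Snai2 and the stronger Zeb2 region), and 1 lay just under the median (the stronger Twist1 region). Median width was 717 bp in the members, against 683 bp in the list, and median read equivalents were 6.50 against 7.50. These medians over 6 regions were not tested. Read equivalents came out within 0.05 of a whole number in 5 of 6 members, all but Zeb1. The nearest figure for other regions is the 39.2% of 7282 regions whose multiple was divisible by 54, which is a stricter rule. The share of the whole list under the 0.05 rule was not computed, so the 5 of 6 is not shown to be particular to the members.

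**Figure D3:**
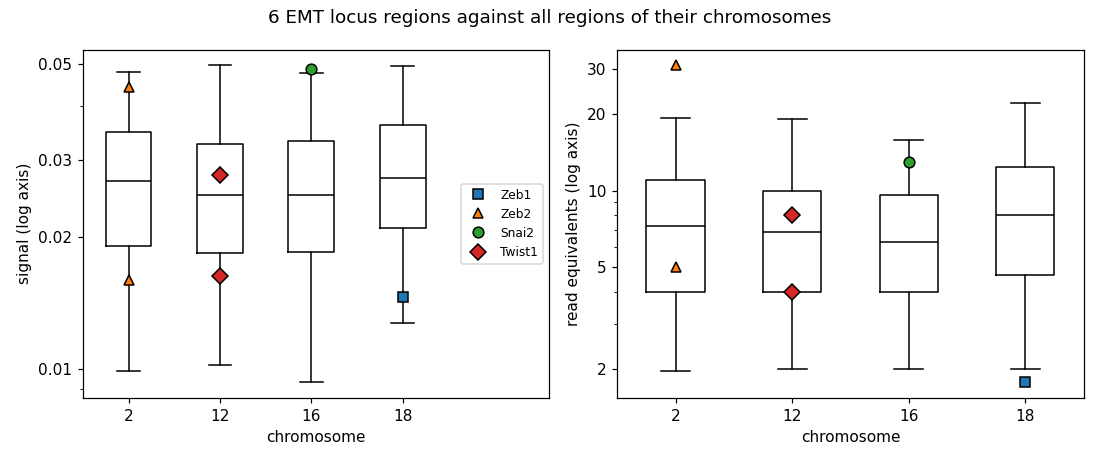
Signal (left, log axis) and read equivalents (right, log axis) of the 6 member regions, as markers, over all regions above 0 of their chromosomes (box, quartiles and median, whiskers, 5th to 95th percentile). Snai2 lies highest by signal and the stronger Zeb2 region highest by read equivalents, while Zeb1 is lowest in both.

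The regions could not be placed on promoters, exons or introns, because the gene table at hand is of GRCm38.p6 and the list of mm9. In gene order on GRCm38.p6, the nearest protein-coding genes are Zfp438 and Arhgap12 beside Zeb1, Gtdc1 and Acvr2a beside Zeb2, LOC115488637 and Efcab1 beside Snai2, Ferd3l and Hdac9 beside Twist1, and Trdmt1 and St8sia6 beside Vim. Whether a region falls in a neighbour rather than in the EMT gene was not tested.

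Promoter sequences are shown as the regulatory sequence known for these genes, since the sequence of the listed regions themselves was not analysed here. The RefSeq promoter table (GRCm38.p6, 250 bases before to 50 after the start) matched 3 of the 5 genes, Zeb2, Twist1 and Vim, with 6 promoters, 4 of them alternative starts of Zeb2. The Zeb2 promoters at chr2:45113204-45113503 and chr2:45113230-45113529 overlap over most of their length, so the 6 are not all separate sequences. All 6 were searched on both strands for the SOX cores ACAAAG and ACAATG and for the E2-box CACCTG, and no matches overlapped. A SOX core was found in 1 of the 6, at an alternative start of Zeb2 (GRCm38.p6 chr2:45110228-45110527, minus strand), 62 bases before the start and in capitals below. The Twist1 promoter (GRCm38.p6 chr12:33957421-33957720, plus strand) and the Vim promoter (GRCm38.p6 chr2:13574061-13574360, plus strand), shown beside it, held none of these letters.
Zeb2 alternative promoter: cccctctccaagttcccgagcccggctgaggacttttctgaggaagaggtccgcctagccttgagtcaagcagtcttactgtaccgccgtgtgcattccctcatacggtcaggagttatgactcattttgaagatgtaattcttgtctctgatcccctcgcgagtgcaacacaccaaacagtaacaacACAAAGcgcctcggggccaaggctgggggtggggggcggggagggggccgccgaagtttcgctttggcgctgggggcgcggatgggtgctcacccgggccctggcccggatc
Twist1 promoter: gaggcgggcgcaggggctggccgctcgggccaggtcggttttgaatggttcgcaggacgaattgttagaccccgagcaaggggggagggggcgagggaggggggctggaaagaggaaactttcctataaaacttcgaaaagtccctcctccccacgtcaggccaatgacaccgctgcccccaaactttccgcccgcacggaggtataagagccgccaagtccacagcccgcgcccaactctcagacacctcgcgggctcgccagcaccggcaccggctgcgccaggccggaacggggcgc
Vim promoter: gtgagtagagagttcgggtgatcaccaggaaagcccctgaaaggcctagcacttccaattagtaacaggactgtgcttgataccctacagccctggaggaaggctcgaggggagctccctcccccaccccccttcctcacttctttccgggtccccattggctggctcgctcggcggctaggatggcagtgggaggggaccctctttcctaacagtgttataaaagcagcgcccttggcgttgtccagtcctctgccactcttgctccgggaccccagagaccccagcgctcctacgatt
A SOX core was present in 28.6% of all 32851 promoters of the table and the E2-box in 20.2%, while 0 of the 6 held the E2-box. Of 20 other EMT genes, 7 had a promoter in the table (Ovol2, Prrx1, Snai1, Sparc, Tgfb1, Tgfbr1 and Twist2), with 8 promoters in all. A SOX core was found in 3 of these 8 promoters, from 2 genes, and the E2-box in 2 of 8, from 2 genes. With 3 of 5 and 7 of 20 genes matched, a comparison of these sets with all promoters is void. A match is a description of these letters and shows no binding.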

How the data were processed

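SOX10 was pulled down from PY230 tumors by ChIPmentation, in which a transposase inserts adapters into chromatin on the beads. The deposited list gives 1 signal value per region, from both SOX10 ChIP samples pooled by the authors and set against the control; its formula and unit and the calling threshold are not stated in the labels. FastQC, Bowtie 0.12.8, SAMtools 1.3.1, MACS2 2.1.1 and mm9 appear in the submitters' processing notes, with no role stated. Library totals are not in the list, so sample depth is unknown.

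Regions were counted in each locus window and in all same-size windows lying between the first and last region of every chromosome, on a grid aligned with the locus window. Each count was compared with the density of its own chromosome over that span by a two-sided exact binomial test, adjusted over all windows of that size, at 0.05. Intervals are exact Poisson at 95% and do not allow for clustering. The test was checked on simulated data with regions placed uniformly, which does not cover the clustering of the listed regions. Alternatives were the overlap rule, the upper 50% of the list by signal, runs under 10 kb counted once, regions at 0, the reference density, the grid and the window width. Named regions are all members and the nearest region on each side of every window (first laid down only for empty windows). The windows and gene lists were chosen with earlier results of these data known. Python 3.11.15, SciPy 1.17.1, pandas 2.3.3 and matplotlib 3.10.9 were used.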

Additional observations from a re-analysis of the deposited data

How the results depend on the processing

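No paired analysis was possible because both SOX10 ChIP samples were pooled before deposit, which also means that neither could be left out in turn. Under 8 alternative settings for each of the 5 loci, 0 of 40 recomputed counts were called, and the lowest adjusted p was 0.473 in the exact binomial test (Zeb1 in a window of 900 kb). 36 of 40 kept their side of expectation, but some of these could not change it. A shift of the grid leaves the count and the expected number of a locus as they were. The Vim count of 0 could rise only in a wider window. The 4 that changed side were Zeb2 at 1.07 times the expected number in the upper 50% of the list by signal and 1.97 times in its central 400 kb, Snai2 at 0 in its central 150 kb, and Twist1 at 0 in the upper 50% of the list. In 3 of them 1 or 2 regions left the count, while for Zeb2 in its central 400 kb only the expected number fell. Of 12 recomputed shares of windows with at least the locus count, 3 moved beyond their 95% exact binomial interval. They were 46.2% for Zeb1 over windows of all chromosomes, and 63.6% for Zeb2 and 35.7% for Twist1 with runs counted once. The interval is only a yardstick here, since each share covers all windows of its grid and is no sample of them. Ranked by signal times width in place of signal, the share of the list below the strongest region was 5.20% for Zeb1, 97.3% for Zeb2, 77.2% for Snai2 and 53.1% for Twist1. This ranking is the same as that by read equivalents, so it is no separate check. The small expected counts, 0.715 to 2.06 regions per window, limit what any of these windows can show.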
